A study of Mus musculus with 24 samples.

Results

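The question addressed here was whether FAPs (fibro/adipogenic progenitors), stromal cells that lie between the fibres of skeletal muscle, respond to muscle injury to a different extent in old and in young mice. The measure was the activation change, activated minus quiescent, in old mice minus the same change in young mice. All 24 of the 24 arrays of the series enter it, grouped by their titles, and all 7576 named genes that passed the filter on dim probes were tested, with 572 probes that have no gene name here. Each of the 4 groups held 6 arrays, which the labels call biological replicates. Old activated FAPs came from mice aged 20 to 24 months, 3 days after intramuscular injection of 50 µl of 50% glycerol, and old quiescent FAPs from uninjured muscles of the same age range. Young activated FAPs, likewise 3 days after glycerol, and young quiescent FAPs came from mice aged 2 to 4 months. All mice were wild-type C57BL/6J males, and the cells of each sample were freshly sorted from a pool of tibialis anterior, gastrocnemius and quadriceps muscle. The gates and surface markers of the sort, and how many mice went into a sample, are not given in the labels.

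Glycerol destroys muscle fibres and leaves fat deposits during repair. FAPs leave quiescence within days of such an injury, divide, secrete matrix and signals that act on muscle stem cells, and are later cleared as the muscle regenerates. Endothelial cells, blood cells and macrophages lie in the same muscles as FAPs. In bulk samples such as these, fewer cells of a type and less RNA per cell cannot be told apart.

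Values below are log2 intensities after background correction and quantile normalization. A positive difference means that the activation change was more positive, or less negative, in old than in young FAPs. The lowest, median and highest of the 6 arrays are given, in that order, for each group. A gene is said to have passed at an adjusted p under 0.05 in limma's moderated test, with Benjamini-Hochberg adjustment over all tested features.

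In old mice 15 of 7576 genes (0.198%) had an activation change different from that in young mice, 13 with a higher difference (0.172%) and 2 with a lower one (0.0264%). The endothelial receptor Robo4, the capillary lipase anchor Gpihbp1, the transcription factor Tcf15, the retinol-binding protein Rbp7 and the alpha globin Hba-a1 were among the 13, with differences between 2.27 and 3.00. Of the 13, 9 fell with activation at both ages and by less in old FAPs, while Robo4, Gpihbp1, Icam2 and Cachd1 fell in young FAPs and did not pass in old FAPs. The 2 genes with a lower difference were Angptl4, an inhibitor of lipoprotein lipase, which rose in young FAPs and did not pass in old FAPs, and Stau2, an RNA-binding protein, which rose in young FAPs and fell in old FAPs.

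**Figure D1:**
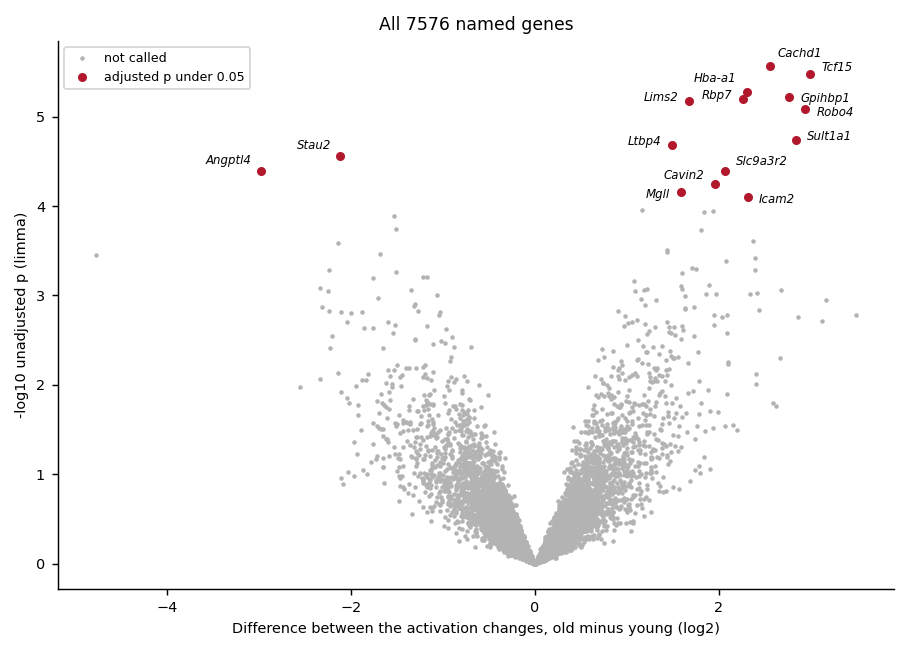
Each point is 1 of 7576 genes, with its log2 difference in activation change (old minus young) on the x axis and the -log10 of its unadjusted p on the y axis. The 15 coloured and named genes passed the test: Angptl4 and Stau2 lie left of 0 and the other 13 right of it.

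Most of the activation response did not differ detectably between the ages. Within old FAPs 2155 genes (28.4%) passed for activated against quiescent, 1097 higher (14.5%) and 1058 lower (14%). Within young FAPs 2559 genes (33.8%) passed, 1292 higher (17.1%) and 1267 lower (16.7%). Over all genes the difference between the ages had a median of -0.01 and quartiles of -0.30 and 0.31, and 49.2% of genes lay above 0. Without adjustment 651 genes (8.59%) had a p under 0.05, 373 of them with a higher and 278 with a lower difference. The precision sets what could be seen: the median standard error of a difference was 0.40, the median 95% confidence interval reached 0.83 to either side, and the smallest difference that passed was 1.495. Among all genes 623 had a difference over 1 in size.

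**Figure D2:**
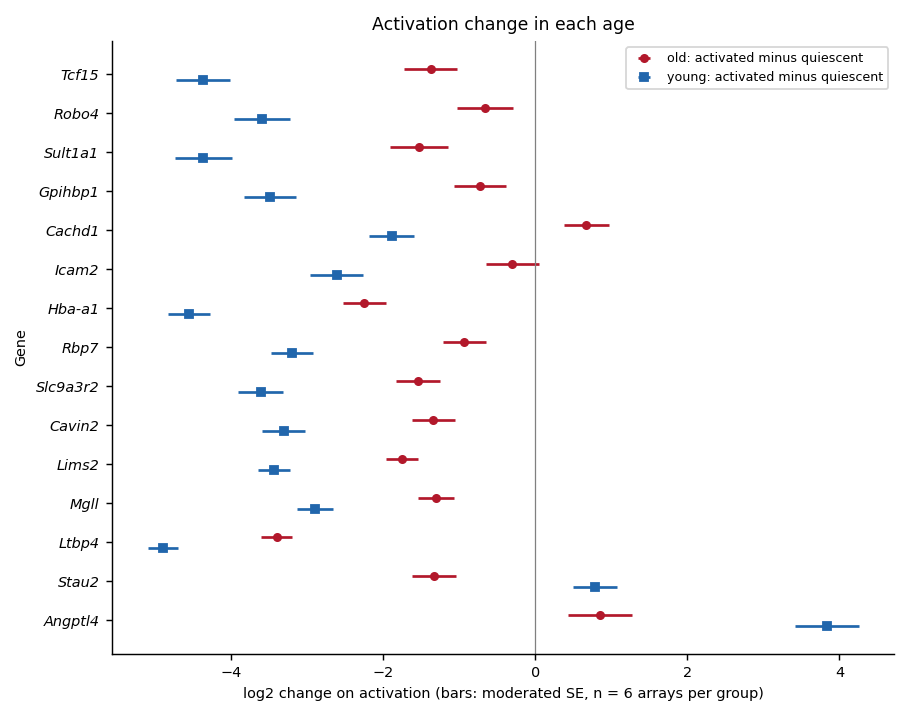
The log2 change with activation in old FAPs (circles) and in young FAPs (squares) is plotted on the x axis for the 15 genes that passed, with bars for the moderated SE of a fit on 6 arrays per group. The SE comes from a spread shared by all groups, so the bars of a gene are equal in old and young FAPs. For the top 13 genes the old value lies right of the young one, and for Stau2 and Angptl4 it lies left of it.

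A few arrays stood apart from the others of their group. On the first principal component, which held 38.7% of the variance, quiescent arrays ran between -51.3 and -6.92 and activated arrays lay at 26.3 or above. The value of -6.92 was that of old quiescent replicate 2. Old activated replicate 4 had the fewest detected probes, 6587, against up to 9943 on other arrays, and the lowest array weight, 0.294. Without old quiescent replicate 2 the number of genes passing was 39, without old quiescent replicate 4 it was 28 and without young activated replicate 1 it was 24. With old quiescent replicate 2 and old activated replicate 4 both left out, a choice made after seeing the data, 42 genes passed, 34 higher and 8 lower. No pair of arrays correlated above 0.969, and none was counted as a duplicate. A letter in the deposited column names is the same for all arrays of a group and is not explained, so its effect cannot be told apart from that of the group.

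The promoters of 4 of the genes that passed are shown because GGAA is known from endothelial promoters and CACCC from globin promoters, and the genes that passed include both kinds. They come from RefSeq (GRCm38.p6), each from 250 bases before to 50 bases after a start of transcription, written 5′ to 3′ on the gene's strand. Capitals mark GGAA or its complement TTCC, the core that ETS factors of endothelium bind, in Robo4 (chr9:37401722-37402021, plus strand), Rbp7 (chr4:149454919-149455218, minus strand) and Cavin2 (chr1:51288876-51289175, plus strand). In Hba-a1 (chr11:32283422-32283721, plus strand) they mark CACCC or its complement GGGTG, a box known from globin promoters.
Robo4: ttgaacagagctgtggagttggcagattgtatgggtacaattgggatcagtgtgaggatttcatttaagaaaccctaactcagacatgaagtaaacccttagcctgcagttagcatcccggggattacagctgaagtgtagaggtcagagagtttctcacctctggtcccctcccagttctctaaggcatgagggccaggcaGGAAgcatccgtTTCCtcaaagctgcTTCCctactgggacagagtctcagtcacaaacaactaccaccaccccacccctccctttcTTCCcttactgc
Rbp7: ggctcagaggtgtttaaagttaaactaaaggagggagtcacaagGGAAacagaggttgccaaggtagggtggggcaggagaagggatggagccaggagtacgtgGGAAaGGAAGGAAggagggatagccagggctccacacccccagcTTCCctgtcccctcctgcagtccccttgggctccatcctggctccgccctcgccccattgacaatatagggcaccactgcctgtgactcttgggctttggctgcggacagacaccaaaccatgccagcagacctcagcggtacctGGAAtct
Cavin2: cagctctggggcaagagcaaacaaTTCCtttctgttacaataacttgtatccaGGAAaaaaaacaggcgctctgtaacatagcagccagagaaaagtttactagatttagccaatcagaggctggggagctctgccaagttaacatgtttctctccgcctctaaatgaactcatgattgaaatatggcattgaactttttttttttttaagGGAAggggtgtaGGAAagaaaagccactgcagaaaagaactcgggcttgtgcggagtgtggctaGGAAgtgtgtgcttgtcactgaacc
Hba-a1: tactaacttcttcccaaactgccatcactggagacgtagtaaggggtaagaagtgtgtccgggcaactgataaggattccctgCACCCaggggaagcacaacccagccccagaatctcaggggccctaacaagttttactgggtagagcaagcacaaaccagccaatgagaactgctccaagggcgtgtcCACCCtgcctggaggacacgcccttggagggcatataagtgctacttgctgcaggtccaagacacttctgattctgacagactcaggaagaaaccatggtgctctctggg

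In the window of Robo4 GGAA or TTCC occurred 4 times, and 46.3% of the 32851 mouse promoter windows of this length held as many or more. Rbp7 had 6 such matches, which 15.7% of windows reached, and Cavin2 had 5, which 28.6% reached. Adjacent matches of Rbp7 do not overlap. The Hba-a1 window held 2 matches of CACCC or GGGTG, as many as or more than which were found in 25.7% of windows. Each window was marked for 1 motif only. The Hba-a1 window also held 4 matches of GGAA or TTCC, as many as that of Robo4. The windows of Robo4 and Rbp7 each held 2 matches of CACCC or GGGTG, as many as that of Hba-a1, and Cavin2 held 1. The counts thus do not set the endothelial genes and the globin gene apart. Either motif is common in mouse promoters, at 96.0% of windows for GGAA and 57.5% for CACCC, and a match is a description of the letters only. Windows were used for 9 of the 15 genes, and none of chromosome 18, where Lims2 lies, was looked up for them.

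Genes known from endothelium included the largest differences that passed. Robo4, a guidance receptor of endothelial cells (chromosome 9), measured 8.14, 8.95 and 9.76 in old activated FAPs, and 8.02, 9.70 and 10.48 in old quiescent FAPs. Young activated FAPs had 5.86, 6.48 and 7.77, against 9.85, 10.42 and 11.03 in young quiescent FAPs. The old groups overlapped and the young groups did not, and every old activated array was above every young activated one. The difference was 2.94 ± 0.52 (SE, 95% confidence interval 1.87 to 4.02, adjusted p = 0.00942), made of a 1.58-fold lower level in old activated FAPs (adjusted p = 0.192) and a 12.1-fold lower level in young activated FAPs (adjusted p = 6.53e-08).

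Gpihbp1, which holds lipoprotein lipase on the capillary wall (chromosome 15), measured 9.82, 10.48 and 11.16 in old activated FAPs, and 10.48, 11.10 and 12.06 in old quiescent FAPs. In young FAPs the values were 7.37, 8.19 and 9.41 after activation, against 11.40, 11.89 and 12.26 in quiescence. Again the old groups overlapped, the young groups did not, and the activated arrays of old mice lay above those of young mice. Its difference was 2.77 ± 0.48 (1.78 to 3.76, adjusted p = 0.009), from a change of -0.73 ± 0.34 in old FAPs (adjusted p = 0.113) and of -3.49 ± 0.34 in young FAPs (adjusted p = 3.21e-08).

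Tcf15, a helix-loop-helix factor of the embryonic somite and of capillary endothelium in muscle and heart (chromosome 2), had 9.19, 9.32 and 9.65 in old activated FAPs, against 9.79, 10.54 and 11.98 in old quiescent FAPs. It had 6.87, 7.33 and 8.46 in young activated FAPs, against 11.23, 11.99 and 12.95 in young quiescent FAPs. Neither age showed overlap between activated and quiescent arrays, and the 2 activated groups did not overlap. Tcf15 fell 2.60-fold with activation in old FAPs (adjusted p = 0.00475) and 20.7-fold in young FAPs (adjusted p = 1.92e-09), a difference of 3.00 ± 0.50 (1.97 to 4.03, adjusted p = 0.009).

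Icam2, an adhesion molecule of endothelium and leukocytes (chromosome 11), measured 8.22, 8.38 and 8.83 in old activated FAPs, and 7.14, 8.83 and 9.98 in old quiescent FAPs. Young activated arrays had 6.63, 7.08 and 7.82, against 9.38, 9.64 and 10.71 for young quiescent arrays. All old activated arrays fell inside the range of the old quiescent ones, whereas the young groups were apart. The difference was 2.31 ± 0.49 (1.31 to 3.32, adjusted p = 0.0433), with changes of -0.30 ± 0.34 in old FAPs (adjusted p = 0.558) and -2.61 ± 0.34 in young FAPs (adjusted p = 2.33e-06).

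Rbp7, a cytosolic retinol-binding protein (chromosome 4), had 8.39, 8.88 and 9.43 in old activated FAPs, against 9.38, 9.73 and 10.74 in old quiescent FAPs. Its values were 5.92, 6.67 and 7.32 in young activated FAPs, against 9.31, 9.71 and 10.55 in young quiescent FAPs. The quiescent groups covered nearly the same range, with a mean of 9.81 in old and 9.81 in young arrays, and the activated groups did not overlap. Rbp7 fell 1.91-fold in old FAPs (adjusted p = 0.0139) and 9.21-fold in young FAPs (adjusted p = 6.04e-09), and the difference was 2.27 ± 0.39 (1.45 to 3.08, adjusted p = 0.009).

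**Figure D3:**
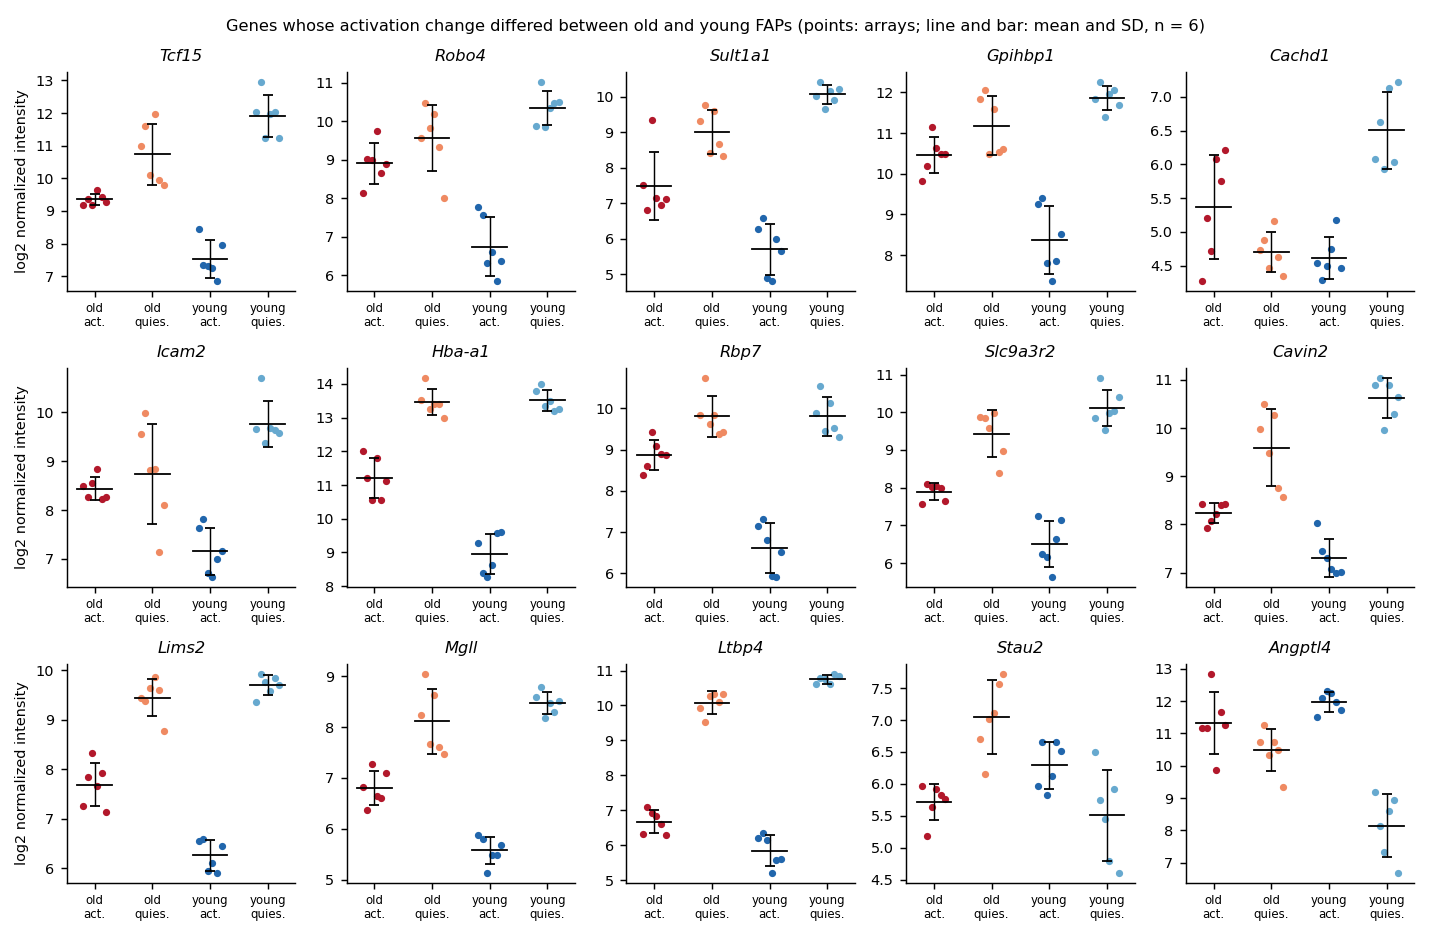
Log2 intensity (y axis) of the 15 genes that passed, 1 panel each, with 1 point per array and a line and bar at the mean and SD of each group of 6, the groups running old activated, old quiescent, young activated and young quiescent. In 14 of 15 panels the young activated and young quiescent points do not overlap.

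Genes of caveolae, cell adhesion and scaffolds formed a further group. Cavin2, a coat protein of caveolae, which are abundant in endothelium (chromosome 1), measured 7.93, 8.31 and 8.43 in old activated FAPs, against 8.56, 9.73 and 10.49 in old quiescent FAPs. Young FAPs had 6.999, 7.19 and 8.02 after activation, against 9.95, 10.77 and 11.04 in quiescence. Activated and quiescent arrays were apart at both ages, and the activated arrays of old and young mice overlapped. Cavin2 fell 2.54-fold in old FAPs (adjusted p = 0.000998) and 9.91-fold in young FAPs (adjusted p = 5.31e-09), a difference of 1.96 ± 0.40 (1.13 to 2.80, adjusted p = 0.0359).

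Lims2, an adaptor of the PINCH family that links integrins to the cytoskeleton (chromosome 18), had 7.14, 7.75 and 8.32 in old activated FAPs, against 8.78, 9.52 and 9.86 in old quiescent FAPs. Young activated FAPs had 5.92, 6.28 and 6.60, against 9.36, 9.73 and 9.93 in young quiescent FAPs. Only the quiescent groups of the 2 ages overlapped. Lims2 fell 3.38-fold in old FAPs (adjusted p = 1.42e-06) and 10.8-fold in young FAPs (adjusted p = 2.53e-11), and the difference was 1.68 ± 0.29 (1.07 to 2.28, adjusted p = 0.009). Its other 2 kept probes gave 2.10 and 1.16.

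Slc9a3r2, a PDZ scaffold that tethers membrane proteins (chromosome 17), measured 7.56, 8.0 and 8.11 in old activated FAPs, against 8.38, 9.71 and 9.98 in old quiescent FAPs. Its young values were 5.64, 6.44 and 7.25 after activation, against 9.53, 10.01 and 10.92 in quiescence. Here too only the quiescent groups of the 2 ages overlapped. The fall was 2.91-fold in old FAPs (adjusted p = 0.000334) and 12.2-fold in young FAPs (adjusted p = 1.92e-09), with a difference of 2.07 ± 0.41 (1.22 to 2.92, adjusted p = 0.0276).

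Among genes of blood and metabolism, Hba-a1 encodes alpha globin (chromosome 11). It measured 10.57, 11.17 and 11.997 in old activated FAPs, against 12.99, 13.42 and 14.18 in old quiescent FAPs. Young activated FAPs had 8.28, 8.95 and 9.61, against 13.20, 13.43 and 13.998 in young quiescent FAPs. The quiescent groups had nearly the same median, and every old activated array was above every young activated one. Hba-a1 fell 4.76-fold in old FAPs (adjusted p = 2.91e-06) and 23.5-fold in young FAPs (adjusted p = 3.18e-11), a difference of 2.31 ± 0.40 (1.49 to 3.13, adjusted p = 0.009). A near-identical gene copy, Hba-a2, may share this probe's signal, so the copy that was read is uncertain.

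Sult1a1, a sulfotransferase acting on phenols (chromosome 7), had 6.80, 7.13 and 9.35 in old activated FAPs, and 8.33, 8.99 and 9.76 in old quiescent FAPs. It had 4.81, 5.81 and 6.59 in young activated FAPs, where 4 of 6 arrays detected it, against 9.65, 10.10 and 10.42 in young quiescent FAPs. The old groups overlapped through the single old activated array at 9.35. Sult1a1 fell 2.89-fold in old FAPs (adjusted p = 0.00353) and 20.6-fold in young FAPs (adjusted p = 5.31e-09), and the difference was 2.84 ± 0.53 (1.74 to 3.94, adjusted p = 0.0186).

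Mgll, the monoacylglycerol lipase (chromosome 6), measured 6.36, 6.73 and 7.28 in old activated FAPs, against 7.48, 7.95 and 9.05 in old quiescent FAPs. Young FAPs had 5.14, 5.58 and 5.87 after activation, against 8.18, 8.49 and 8.79 in quiescence. Activated and quiescent arrays were apart at both ages. Mgll fell 2.48-fold in old FAPs (adjusted p = 0.000188) and 7.46-fold in young FAPs (adjusted p = 1.92e-09), a difference of 1.59 ± 0.33 (0.91 to 2.27, adjusted p = 0.0408), and its second kept probe gave 1.497.

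Ltbp4, which binds latent TGF-beta in elastic matrix (chromosome 7), had the largest falls among these genes. Its values were 6.28, 6.72 and 7.10 in old activated FAPs, against 9.51, 10.19 and 10.34 in old quiescent FAPs. Young activated FAPs had 5.22, 5.88 and 6.34, against 10.61, 10.76 and 10.91 in young quiescent FAPs. Every old quiescent array was below every young quiescent one, and the activated groups overlapped. Ltbp4 fell 10.6-fold in old FAPs (adjusted p = 5.99e-11) and 29.8-fold in young FAPs (adjusted p = 1.56e-14), so that the difference was 1.495 ± 0.28 (0.91 to 2.08, adjusted p = 0.0187), with 1.36 from its second kept probe.

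Cachd1, which is related to accessory subunits of calcium channels (chromosome 4), was near the detection limit. It measured 4.28, 5.47 and 6.21 in old activated FAPs (5 of 6 arrays detected) and 4.35, 4.68 and 5.16 in old quiescent FAPs (2 of 6 detected). Young activated FAPs had 4.28, 4.52 and 5.17 (1 of 6 detected), against 5.94, 6.36 and 7.22 in young quiescent FAPs (6 of 6 detected). Young quiescent arrays were thus the high group. Cachd1 fell 3.70-fold in young FAPs (adjusted p = 2.38e-05), had a change of 0.67 ± 0.30 in old FAPs (adjusted p = 0.0945), and differed by 2.56 ± 0.42 (1.69 to 3.42, adjusted p = 0.009).

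Of the 2 genes with a lower difference, Angptl4 is secreted by fat and other cells and inhibits lipoprotein lipase, the enzyme that Gpihbp1 anchors (chromosome 17). It measured 9.86, 11.23 and 12.85 in old activated FAPs, and 9.33, 10.60 and 11.27 in old quiescent FAPs. Young activated FAPs had 11.51, 12.05 and 12.32, against 6.69, 8.36 and 9.17 in young quiescent FAPs. Every old quiescent array was above every young quiescent one, and the activated groups overlapped. Angptl4 rose 14.3-fold in young FAPs (adjusted p = 1.73e-07) and had a change of 0.85 ± 0.42 in old FAPs (adjusted p = 0.135), a difference of -2.98 ± 0.59 (-4.21 to -1.75, adjusted p = 0.0276).

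Stau2 binds double-stranded RNA and takes part in mRNA transport (chromosome 1). Its values were 5.19, 5.79 and 5.96 in old activated FAPs, against 6.15, 7.06 and 7.72 in old quiescent FAPs. In young FAPs they were 5.83, 6.32 and 6.65 after activation, and 4.61, 5.60 and 6.5 in quiescence, where 4 of 6 arrays detected it. The old groups were apart and the young groups overlapped. Stau2 fell 2.51-fold in old FAPs (adjusted p = 0.00124) and rose 1.72-fold in young FAPs (adjusted p = 0.0384), and the difference was -2.11 ± 0.41 (-2.96 to -1.27, adjusted p = 0.0223).

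A difference in activation change can lie in the activated arrays, in the quiescent ones or in both, and the 15 genes were not alike in this. These age differences, old minus young, are the parts of the same contrast that selected the genes, and they are given as a description. Rbp7 and Hba-a1 differed by 2.27 and 2.25 in activated FAPs, against -0.06 in quiescent FAPs for Hba-a1. Robo4 had 2.16 in activated and -0.78 in quiescent FAPs, Gpihbp1 2.09 and -0.68, and Tcf15 1.82 and -1.17. For Cachd1 the quiescent part was the larger, with 0.75 in activated and -1.80 in quiescent FAPs. The same held for Cavin2, with 0.93 and -1.03, for Angptl4, with -0.65 and 2.33, and for Stau2, with -0.57 and 1.54. Arrays of old and young mice did not overlap in activated FAPs for 10 of the 15 genes, against 1.00% of all genes, and in quiescent FAPs for 3 of the 15, against 1.15%. Activated and quiescent arrays did not overlap in old FAPs for 8 of the 15, against 8.96% of all genes, and in young FAPs for 14 of the 15, against 22.3%.

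The calls differed in how much they rested on single arrays. Robo4, Gpihbp1, Tcf15, Rbp7, Hba-a1, Cachd1, Sult1a1, Ltbp4 and Lims2 passed in each of the 24 fits with 1 array left out. Stau2 passed in 23 and did not without young activated replicate 2. Angptl4 passed in 15, and did not without old activated replicates 1, 2, 4 or 6, young activated replicates 2, 3 or 4, or young quiescent replicates 2 or 6. Slc9a3r2 also passed in 15, and did not without old activated replicates 2, 4 or 5, old quiescent replicate 6, young activated replicates 2, 3 or 4, or young quiescent replicates 2 or 6. Cavin2 passed in 8, those without old activated replicates 2 or 3, old quiescent replicates 1, 2 or 4, young activated replicate 1, or young quiescent replicates 3 or 5. Icam2 passed in 7, those without old quiescent replicates 1, 2, 4 or 5, young activated replicates 1 or 2, or young quiescent replicate 3. Mgll passed in 6, those without old activated replicate 2, old quiescent replicates 1, 2 or 4, young activated replicate 1, or young quiescent replicate 3. Each of the 15 genes kept the sign of its difference in all of these fits.

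Other settings also ended some calls. Ltbp4 did not pass with cyclic loess (1.38, adjusted p = 0.0574) or with scaling to the 75th percentile (1.35, adjusted p = 0.0931) in place of quantile normalization. Lims2 did not pass with the mean of its kept probes (1.64, adjusted p = 0.0896). Robo4, Rbp7, Slc9a3r2, Cachd1 and Ltbp4 also have probes that were detected on 0 arrays, and Mgll has 1 detected on 3 arrays. These probes were not kept, and their differences lay between -0.13 for Robo4 and 0.25 for Mgll. For Robo4, Rbp7, Slc9a3r2 and Cachd1 the result thus rests on 1 probe. Without a filter on dim probes Sult1a1, Stau2, Angptl4, Cavin2, Icam2, Slc9a3r2 and Mgll did not pass, with adjusted p between 0.0532 for Sult1a1 and 0.117 for Icam2. Cavin2, Icam2, Slc9a3r2 and Mgll did not pass without background correction or with the authors' normalized log2 values, Icam2 and Mgll with an offset of 50, and Mgll with a trended and robust prior. With the replicate number as a block Slc9a3r2 (adjusted p = 0.0649) and Mgll (adjusted p = 0.0663) did not pass. Without background correction 4 differences were over 1.5 times smaller and still passed, at 0.93 for Cachd1, -0.97 for Stau2, 1.07 for Lims2 and 1.88 for Sult1a1. With the authors' normalized log2 values they were 0.89, -0.93, 1.03 and 1.83 in the same order, and that of Ltbp4 was 0.98, each of which passed. Mgll had 0.83 and 0.80 under these settings. Cachd1 had 1.47 with an offset of 50.

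Endothelial markers as a list showed where Robo4 and Gpihbp1 stood among genes of their kind. Of 16 markers, 13 were measured. Robo4 and Gpihbp1 passed, where 0.198% of all genes did. Of the differences 12 were above 0 and 1 below, where 49.2% of all genes lay above 0. The median was 1.87, against -0.01 over all genes. That median was 0.89 without background correction and 0.85 with the authors' normalized log2 values, and no alternative changed its sign. Within old FAPs 5 of the 13 fell with activation, where 14% of all genes fell, and within young FAPs 12 did, where 16.7% fell. Emcn, a sialomucin of capillaries, had a difference of 2.41 (adjusted p = 0.139), the VEGF receptor Flt1 2.08 (adjusted p = 0.112), the junction protein Pecam1 1.87 (adjusted p = 0.139) and the VEGF receptor Kdr -0.17. The mean over the list's genes ran between 7.60 and 8.19 with a median of 7.87 in old activated FAPs, and between 8.20 and 9.56 with a median of 8.67 in old quiescent FAPs. It ran between 6.26 and 7.48 with a median of 6.95 in young activated FAPs, and between 9.04 and 9.92 with a median of 9.37 in young quiescent FAPs. No old activated array fell inside the range of the young activated ones. Tie1 and Erg did not pass the filter. The part of these markers' RNA in the results above was not tested. Without old quiescent replicate 2, Pecam1, Flt1 and Egfl7 also passed, and Flt1 did so without young activated replicate 1 and with array weights.

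**Figure D4:**
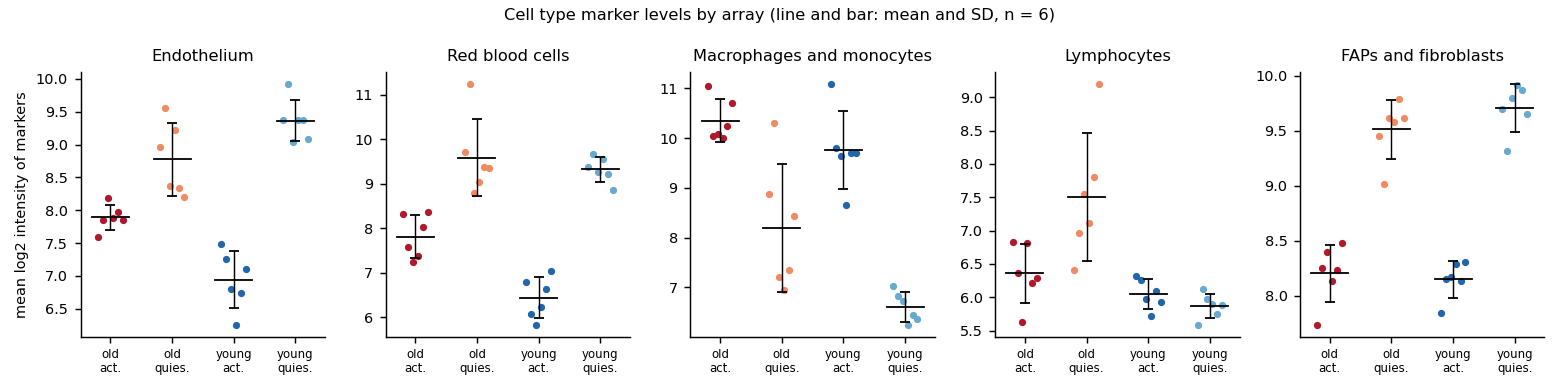
Mean log2 intensity (y axis) of the measured markers of 5 cell types, 1 panel each, with 1 point per array and a line and bar at the mean and SD of each group of 6, the groups running old activated, old quiescent, young activated and young quiescent. Endothelial markers lie between 7.60 and 8.19 in old activated and between 6.26 and 7.48 in young activated FAPs.

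Marker genes of other cells of muscle and blood were set beside these results. Of all genes 0.198% passed and 49.2% had a difference above 0. Of 9 red blood cell genes 4 were measured, with a median difference of 1.19 and Hba-a1 as the one that passed. The list's mean had a median of 7.81 (7.24 to 8.37) in old activated FAPs, against 9.37 (8.80 to 11.25) in old quiescent FAPs, and 6.44 (5.84 to 7.05) in young activated FAPs, against 9.33 (8.86 to 9.66) in young quiescent FAPs. Quiescent arrays of the 2 ages overlapped in this mean and activated arrays did not, and the part of red blood cell RNA in the result for Hba-a1 was not tested. For muscle fibres 13 of 18 genes were measured, 12 above 0, with a median of 0.96 and none passing, Ckm, the muscle creatine kinase, having the largest at 2.44 (adjusted p = 0.16). Their mean had a median of 6.86 (6.81 to 8.64) in old activated FAPs, 7.45 (7.16 to 7.84) in old quiescent FAPs, 6.25 (5.87 to 6.80) in young activated FAPs and 7.37 (7.02 to 8.16) in young quiescent FAPs. Pericyte genes, 8 of 8 measured, had 6 above 0 and a median of 0.59, and none passed. The part of muscle fibre and pericyte RNA in the results was not tested.

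Immune markers mostly lay on the other side of 0, above which 49.2% of all genes lay. Of 21 macrophage and monocyte genes 14 were measured, 12 below 0 with a median of -1.15, and none passed. At both ages most rose with activation, 12 of 14 in old FAPs and 14 of 14 in young FAPs, against 14.5% and 17.1% of all genes. Their mean had a median of 10.16 (10.01 to 11.04) in old activated FAPs, against 7.89 (6.94 to 10.31) in old quiescent FAPs, and 9.69 (8.65 to 11.09) in young activated FAPs, against 6.59 (6.26 to 7.04) in young quiescent FAPs. The spread within old quiescent FAPs was thus wide, and Itgam, Ptprc, Ccr2, Cybb and Spi1 did not pass the filter. The value of 10.31 was that of old quiescent replicate 2 and lay inside the old activated range. The next highest old quiescent array, replicate 1, had 8.88. Of 18 lymphocyte genes 8 were measured, 7 below 0 and none passing, with a median of -1.59. Keeping only probes detected on all 24 arrays gave 0.59. That is the value of the list's highest single gene, so it does not describe the list. Their mean had a median of 6.33 (5.63 to 6.83) in old activated FAPs, against 7.33 (6.41 to 9.20) in old quiescent FAPs, and 6.04 (5.72 to 6.32) in young activated FAPs, against 5.89 (5.59 to 6.13) in young quiescent FAPs. The highest of these medians was that of old quiescent FAPs. Cd3g, a chain of the T cell receptor complex, was detected on 6 old quiescent arrays, 1 old activated array and 0 arrays of either young group. It met the filter through the old quiescent arrays, and its young change of -0.09 compares 2 groups in which it was not detected. The Cd3g difference of -2.14 did not pass (adjusted p = 0.0923) but did without old quiescent replicate 1 or 2 and with 1 weight per group. The antigen genes Cd4, Cd8a and Ms4a1 were detected on no array. The part of immune cell RNA in the results was not tested. Satellite cell and myoblast genes had 3 of 10 measured and a median of -0.21, with Pax7, Myf5, Myod1, Mymk and Calcr detected on no array.

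The identity genes of FAPs did not pass for a difference with all arrays weighted equally. Of 26 FAP and fibroblast markers 21 were measured, with 14 above and 7 below 0, where 49.2% of all genes lay above 0. Their median was 0.24, and 15 fell with activation at either age, against 14% of all genes in old and 16.7% in young FAPs. Pdgfra, the receptor that marks FAPs, changed by -1.10 with activation in old FAPs (adjusted p = 0.000547) and by -1.03 in young FAPs (adjusted p = 0.000641), a difference of -0.06 (-0.70 to 0.57, adjusted p = 0.984). Dpp4 and Pi16, markers of a progenitor-like stromal state, had differences of 1.47 (0.51 to 2.42, adjusted p = 0.251) and 1.00 (0.36 to 1.64, adjusted p = 0.235). Vit had the largest difference of the list, 1.58 (0.73 to 2.44, adjusted p = 0.139), and passed with array weights (1.87, adjusted p = 0.0298). Col1a1 did not pass the filter on dim probes. The list's mean had a median of 8.24 (7.74 to 8.48) in old activated FAPs, against 9.60 (9.01 to 9.79) in old quiescent FAPs, and 8.16 (7.84 to 8.31) in young activated FAPs, against 9.75 (9.32 to 9.92) in young quiescent FAPs. FAP markers were thus measured in all 4 groups, and activated and quiescent arrays did not overlap in their mean at either age.

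Of 30 mitosis genes 15 were measured, and 14 rose with activation in old and 15 in young FAPs, where 14.5% and 17.1% of all genes rose. Of 23 measured DNA replication genes 20 rose at either age. Of 40 measured histone genes 24 rose and 1 fell in old FAPs, and 29 rose in young FAPs. None of these genes passed for a difference between the ages with all arrays weighted equally. The mitosis genes had a median change of 2.51 in old and 3.45 in young FAPs. Their differences between the ages had a median of -0.57, with 14 of 15 below 0, where 49.2% of all genes lay above 0. Plk1, a kinase that drives entry into mitosis, had -2.25 (-3.48 to -1.02, adjusted p = 0.139), and Cdc20, an activator of the anaphase-promoting complex, had -1.76 (-2.68 to -0.83, adjusted p = 0.13). In young quiescent FAPs Plk1 was detected on 4 of 6 arrays and Cdc20 on 1, so these differences rest partly on dim values. For both genes the quiescent part was the larger. Old minus young, Plk1 had -0.56 in activated and 1.70 in quiescent FAPs, and Cdc20 had -0.66 and 1.09. The mean of the mitosis genes had a median of 7.73 in old and 8.07 in young activated FAPs, against 5.22 and 4.94 in quiescence. Among the histone genes 34 differences lay below 0 with a median of -0.68, and among the DNA replication genes 16 did with a median of -0.37. Without old quiescent replicate 4, Plk1 (-2.65, adjusted p = 0.0127) and the histone genes H2ac10, H2ac22 and H2ac24 passed with a lower difference. Cdc20 passed without old quiescent replicate 3 (-2.04, adjusted p = 0.0226) and with array weights (adjusted p = 0.0472).

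Genes that signal to other cells also gave values that did not pass. Among 33 measured cytokines and chemokines 21 lay below 0, with a median of -0.42, where 49.2% of all genes lay above 0. Ccl2, which attracts monocytes, had 7.64, 8.60 and 9.18 in old activated FAPs, against 6.18, 6.47 and 8.21 in old quiescent FAPs, and 8.45, 8.83 and 9.28 in young activated FAPs, against 4.88, 5.40 and 5.83 in young quiescent FAPs. Its levels were close in activated FAPs and higher in old than in young quiescent FAPs, and the difference was -1.69 (-2.52 to -0.85, adjusted p = 0.104), which passed with array weights (adjusted p = 0.0401). Ccl5, a T cell chemokine, had -2.34 (adjusted p = 0.139) and passed without old quiescent replicate 1. The acute phase protein Saa3 had 9.40, 10.61 and 11.37 in old activated FAPs, against 5.66, 9.77 and 13.18 in old quiescent FAPs, and 10.34, 10.59 and 11.21 in young activated FAPs, against 4.31, 4.80 and 5.18 in young quiescent FAPs. The old quiescent arrays spread over a wide range that held all old activated arrays, and the difference of -4.77 ± 1.15 (adjusted p = 0.104) was the largest in size among the named genes. It passed without old quiescent replicate 3 or 4, with array weights and with 1 weight per group. Il33, an alarmin of stromal cells, had -1.17 (-1.87 to -0.46, adjusted p = 0.181) and Il6 had -1.14 (-2.21 to -0.07, adjusted p = 0.539). Ccn4, a matricellular protein secreted by FAPs that acts on muscle stem cells, had 5.71, 7.37 and 8.58 in old activated FAPs, against 4.35, 5.27 and 6.51 in old quiescent FAPs. It had 8.92, 9.45 and 9.93 in young activated FAPs, against 5.00, 6.31 and 7.43 in young quiescent FAPs. Ccn4 rose with activation in old FAPs (1.95, adjusted p = 0.00418) and in young FAPs (3.23, adjusted p = 1.51e-05), and its difference of -1.28 (-2.71 to 0.14) did not pass (adjusted p = 0.635).

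Matrix and growth factor genes passed in 1 case. Of 27 measured TGF-beta and BMP genes Ltbp4 passed, where 0.198% of all genes did. The list median was 0.06, and Gdf10, a ligand of this family, had 1.60 (adjusted p = 0.139). The medians were -0.12 for 19 fibrillar collagen and folding genes, 0.40 for 16 basement membrane and collagen VI genes, -0.24 for 13 matricellular genes and 0.15 for 19 matrix proteases and inhibitors. Timp1, an inhibitor of matrix proteases, had -1.17 (-2.01 to -0.33, adjusted p = 0.339), Sparc 1.08 (0.22 to 1.94, adjusted p = 0.432), Lum 0.24, Col3a1 0.18, Thy1 0.34, Cd34 0.40 and Acta2 -0.54, none of which passed. Postn is on the array and did not pass the filter. Igf1, a growth factor for muscle, had -0.04 (-0.54 to 0.47), the fat cell regulator Pparg -0.03 (-0.86 to 0.81), and the cell cycle inhibitors Cdkn1a and Cdkn2a 0.65 (-0.17 to 1.47) and -0.44 (-1.18 to 0.29).

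None of the measured genes of the other lists passed with all arrays and the settings used above. Aldh1l2, a mitochondrial folate enzyme of the serine and one-carbon list, had -2.05 (adjusted p = 0.177) and passed without background correction (-1.17, adjusted p = 0.0296) and with the authors' normalized log2 values (-1.12, adjusted p = 0.0308). Signalling lists had medians of -0.04 for growth factors acting on muscle cells, 0.34 for the IGF and insulin axis, -0.07 for the Wnt pathway, -0.12 for adipogenic factors, 0.21 for immediate early genes and -0.26 for NF-kappaB feedback. Immune lists had medians of -0.21 for the interferon response, -0.04 for MHC class I, -0.61 for MHC class II, 0.23 for complement, -0.18 for the acute phase and -0.22 for granulocytes. Metabolic and translation lists had -0.27 for glycolysis, -0.05 for oxidative phosphorylation, -0.24 for cholesterol synthesis, -0.21 for serine and one-carbon metabolism, -0.06 for cytosolic ribosomal proteins and -0.19 for ribosome biogenesis. Stress lists had -0.05 for the unfolded protein response, -0.16 for heat shock, -0.15 for CDK inhibitors and p53 targets, -0.01 for antioxidant enzymes and 0.04 for the lysosome. The remaining cell lists had -0.30 for smooth muscle and contractile genes, 0.26 for tendon cells and 0.32 for glia. The sign of the median changed under at least 1 alternative setting for 15 of the 43 lists.

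**Figure D5:**
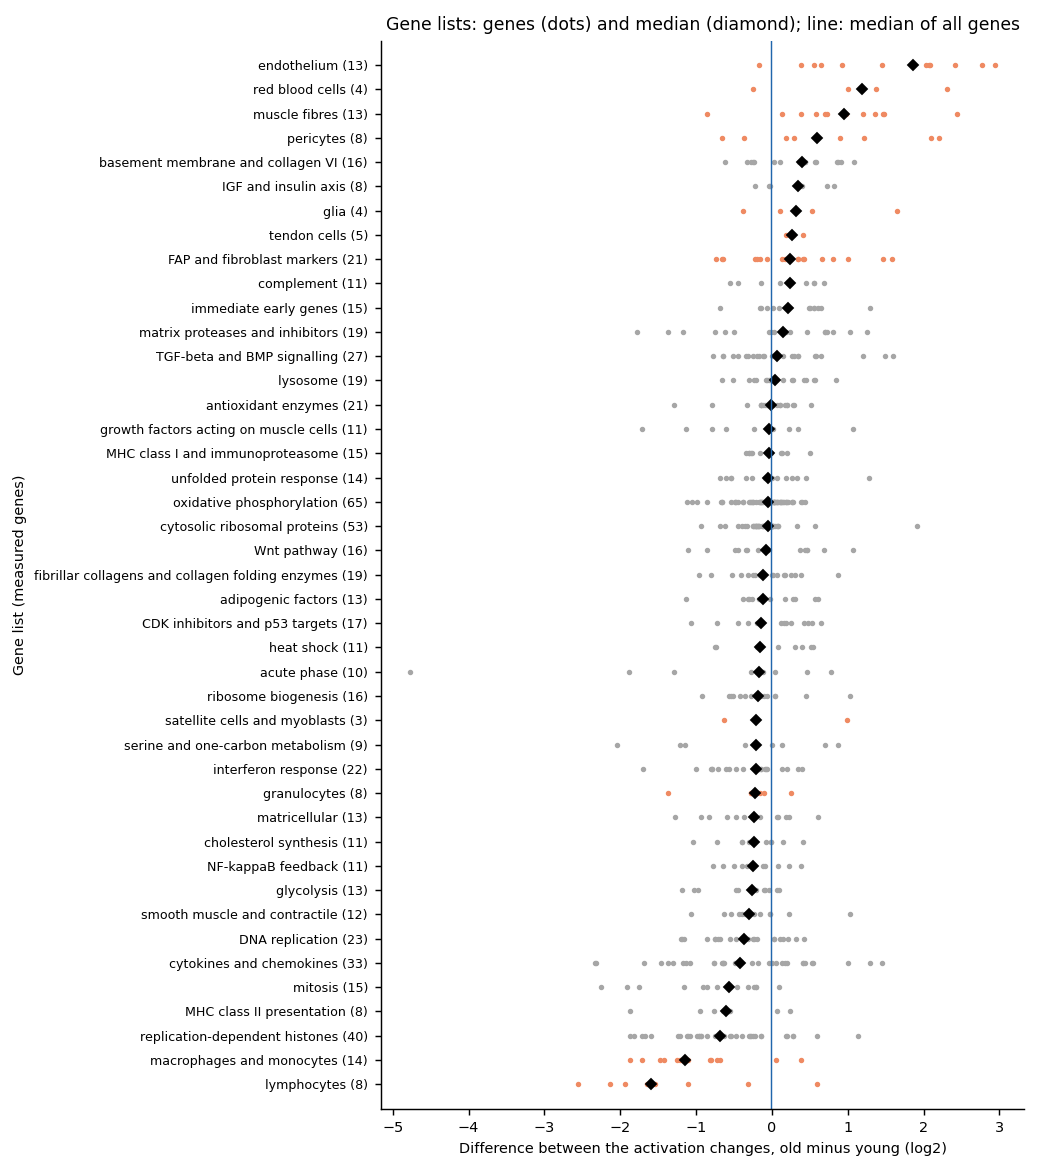
Log2 difference in activation change (old minus young, x axis) of the measured members of each gene list (dots, orange for cell type markers and grey for pathways) and their median (diamonds), with a line at the median of all genes. Endothelium has the highest median, 1.87, and lymphocytes the lowest, -1.59.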

How the data were processed

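Total RNA of sorted FAPs was amplified, labelled with biotin and hybridised to 24 Illumina bead arrays, per the labels' protocols. For 25697 probes an intensity per array, not yet normalized, and its detection p-value were deposited, per the file headers. The authors' own normalized log2 values were used as an alternative, and lay within 0.118 of the log2 of quantile-normalized intensities. Partek is named, with no role, in the submitters' processing notes.

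The background was estimated by nec of limma with the detection p-values and an offset of 16, and arrays were then quantile-normalized (R 4.3.3, limma 3.58.1). Kept probes had a detection p under 0.01 on 6 or more arrays, and a gene was read from its brightest kept probe. Names came from the platform annotation: 23978 probes had 1 gene symbol, 0 had several and 1719 had none. The offset and the quantile normalization can shrink or widen changes of dim probes.

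One limma fit over the 4 groups, with no covariate, gave the contrast, tested with eBayes on 8148 features. The fit was tried on simulated data with independent noise and the same spread in all groups. Such data cannot show how it does where groups differ in spread or genes move together. Named genes were the 12 highest and 12 lowest of those passing, filled by smallest p where fewer passed, up to 4 passing members of each of 43 gene lists (with fewer than 2 passing, the 2 largest in size), and a preset group. The contrast, genes and lists were chosen with earlier results of these data known. Alternatives changed the background correction, normalization, filter, probe choice, weights, prior, replicate block and arrays used. The number of arrays limits the precision. Figures were drawn with matplotlib 3.10.9.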

Additional observations from a re-analysis of the deposited data

Results flagged for a closer look

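The activation change differed between the ages, by the test of the difference itself, for 15 genes. The log2 differences, old minus young, were 3.00 for Tcf15, 2.94 for Robo4, 2.84 for Sult1a1, 2.77 for Gpihbp1, 2.56 for Cachd1, 2.31 for Icam2, 2.31 for Hba-a1, 2.27 for Rbp7, 2.07 for Slc9a3r2, 1.96 for Cavin2, 1.68 for Lims2, 1.59 for Mgll, 1.495 for Ltbp4, -2.11 for Stau2 and -2.98 for Angptl4.

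Single arrays lay far from the other 5 of their group in 5 of 76 group checks, where chance gives about 1 in 20. The checks covered the genes that passed and the means of the endothelial, macrophage and monocyte, lymphocyte and red blood cell lists. Other lists were not checked. Among them, the mean of the muscle fibre genes was 8.64 on old activated replicate 1, against 7.26 or less on the other 5 of that group. Sult1a1 was at 9.35 on old activated replicate 3. Rbp7 was at 10.74 on old quiescent replicate 2, and the mean of the red blood cell genes was at 11.25 on the same array. Icam2 was at 10.71 on young quiescent replicate 2, and the mean of the endothelial markers was at 9.92 on that array. Without old quiescent replicate 2, Rbp7 and Icam2 both passed, and without young quiescent replicate 2, Icam2 did not. Sult1a1 passed without old activated replicate 3.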

How the results depend on the processing

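The 15 calls, 13 higher and 2 lower, became 9, with 0 lower, when no filter on dim probes was used (995 genes then had an unadjusted p under 0.05); 28, with 21 higher and 7 lower, with array weights; and 4 lower calls with 1 weight per group. Leaving out 1 array gave between 10 and 39 calls, 9 to 31 higher and 0 to 9 lower, with 1954 to 2296 calls for activation in old FAPs and 2331 to 2687 in young FAPs. Leaving out old quiescent replicate 2 and old activated replicate 4 together, an alternative chosen after seeing the data, gave 42, 34 and 8. With only the 3577 genes whose probe was detected on all 24 arrays, activation gave 1291 calls in old and 1502 in young FAPs. These counts are out of 3577 genes, against 7576 in the main fit. The cause of the shifts in all these counts was not tested. Whether replicate numbers pair the samples could not be told. The 36 pairs of same-numbered arrays had a median correlation of deviations of 0.05 (-0.09 to 0.36), and 8 were over 0.1. Arrays with different numbers had a median of -0.01. With the replicate block 15 genes passed, 12 higher and 3 lower, and 13 of them were among the 15, without Slc9a3r2 and Mgll. No difference of the 15 changed sign under any alternative, and Tcf15, Robo4, Gpihbp1, Rbp7, Hba-a1 and Cachd1 passed under every alternative in which they were tested. Genes near the detection limit, Cachd1 and Stau2 among them, have the least signal over background.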

Other observations

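Leaving out a single array also brought further genes past the threshold: 24 without old quiescent replicate 2, 13 without old quiescent replicate 4, 9 without young activated replicate 1 and 7 without old quiescent replicate 1. The genes named here were chosen after their values were seen. Of the 24 and 13, Cdh13, Gfod1, Hspa12b and Rasip1 were in both. Sox17, a transcription factor of arterial endothelium, had a difference of 3.01 without that array (adjusted p = 0.0383) and of 2.67 with it (adjusted p = 0.139). Selp, the P-selectin of venules, had 3.34 without it (adjusted p = 0.0471) and 2.59 with it (adjusted p = 0.432). Pdgfb, the growth factor by which endothelium recruits pericytes, had 2.05 (adjusted p = 0.0285) and 1.94 (adjusted p = 0.0534). The adhesion molecule Cdh13 had 1.98 (adjusted p = 0.0177) and 1.80 (adjusted p = 0.0722), and the receptor Notch4 had 1.85 (adjusted p = 0.0482) and 1.71 (adjusted p = 0.121). With a lower difference, the T cell gene Cd3g had -2.36 without that array (adjusted p = 0.0206) and -2.14 with it (adjusted p = 0.0923). Cd3g was detected on 0 arrays of either young group, so no activation change was measured in young FAPs. The ubiquitin-like gene Ubd had -2.50 (adjusted p = 0.0286) and -2.24 (adjusted p = 0.121).

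Without old quiescent replicate 4 the differences that passed included -2.65 for Plk1 (adjusted p = 0.0127), -2.03 for the histone gene H2ac10 (adjusted p = 0.0127) and -5.53 for Saa3 (adjusted p = 0.01). The water channel Aqp1, in none of the gene lists, passed without young activated replicate 1 at 1.81 (adjusted p = 0.0296).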
